A study of Rattus norvegicus with 3 samples.

Results

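The genes described here control the entry of a cell into S phase, and were measured across the progenitors and neurons of the embryonic rat cortex. They are the D cyclins Ccnd1, Ccnd2 and Ccnd3, their partner kinases Cdk4 and Cdk6, and the CDK inhibitors Cdkn1b (p27), Cdkn1c (p57) and Cdkn2c (p18). The members were taken by symbol from the gene lists of the matrices, 8 of 29772 genes, and all 8 were found in every library. Their counts of unique molecular identifiers (UMIs, each standing for 1 captured transcript) were summed over progenitor and neuron classes. The cells were taken from embryos of wild-type rats, as cerebral cortex freshly dissociated with papain, at labelled embryonic days 14, 16 and 18. Each label has 1 library, so a ratio between libraries has no replicate check and no p-value is given. How many embryos each library pooled is not stated in the labels. The labels' protocol text also covers cultured, oligonucleotide-tagged and antibody-sorted human cells, and which of those steps these rat cells went through is not known.

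D-type cyclins accumulate in response to growth signals and activate Cdk4 and Cdk6. The active kinases phosphorylate the retinoblastoma protein, which releases E2F factors and the S phase genes they drive. Proteins of the INK4 family, such as p18, bind Cdk4 and Cdk6 themselves, whereas p27 and p57 of the Cip/Kip family bind whole cyclin-kinase complexes, and p57 comes from an imprinted gene. In the developing cortex, radial glia are the stem cells at the ventricle, intermediate progenitors are their neurogenic daughters, and both give rise to excitatory neurons that no longer divide.

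The 3 libraries held 62740631, 80974234 and 73727823 UMIs in order of label, and 4286, 4977 and 5431 cells were kept, with median depths between 10475 and 12276 UMIs. Pairs of libraries shared 12 to 17 cell barcodes, of which 7 or 8 were among the kept cells. Radial glia numbered 391, 2865 and 1745 cells in the libraries labelled E14, E16 and E18, and intermediate progenitors 439, 421 and 1033. Newborn excitatory neurons numbered 883, 23 and 1934, and maturing ones 1693, 0 and 409, so neurons could be compared only between the libraries labelled E14 and E18. Every radial glia marker (12 of 12) and every intermediate progenitor marker (10 of 10) was detected in its class in each library. Detection here means at least 1 UMI in the whole class, and maturing neurons labelled E14 and E18 also held all of both lists. The radial glia list summed to 10498, 4298 and 6282 of each 1000000 UMIs of radial glia in label order. Markers of stage went against the label order. In radial glia Hmga2, a gene of early progenitors, stood at 12.2, 224 and 21.5 CPM in label order, where CPM is its UMIs per 1000000 UMIs of the class, and Aldoc, a gene of late radial glia, at 759, 17.3 and 242 CPM. The embryonic share of globin UMIs was 2.57%, 67.4% and 22%. These genes ordered the libraries as E16, E18 and E14, so every ratio below is between libraries as labelled and not between known ages. Radial glia also came from different clusters in different libraries, with 356 of the 391 cells labelled E14 in 1 cluster, 2844 of the 2865 labelled E16 in 3 others and 1634 of the 1745 labelled E18 in 2 more. The 3 clusters of intermediate progenitors each held cells of all 3 libraries. Neurons were again split by library. Of newborn neurons labelled E14, 870 were in the cluster led by Sstr2, while those labelled E18 were in clusters led by Pcp4 (1004 cells) and Neurod1 (913 cells). Newborn neurons labelled E18 also carried more of the maturing neuron marker list, 5763 against 3331 CPM, and the part of this in the newborn ratios below was not tested. Of maturing neurons, 397 of the 409 labelled E18 were in 1 cluster that held only 78 of those labelled E14.

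Ccnd1 was the member that differed most between libraries in progenitors. In radial glia the library labelled E14 held 49.3 CPM (95% interval 43.7 to 55.5), against 250.9 (246 to 256) for the label E16 and 39.5 (37.1 to 42.1) for the label E18. The library labelled E16 was thus 5.09 times that labelled E14 (4.51 to 5.75), and the library labelled E18 was 0.158 times that labelled E16 (0.147 to 0.168). These intervals, like all others here, cover counting error only. Intermediate progenitors were also highest in the library labelled E16, with 80.7, 162.1 and 50.1 CPM, at smaller ratios of 2.01 (1.79 to 2.26) and 0.309 (0.278 to 0.344). The order of the other libraries depended on the cells counted. Labelled E18 over E14 the intermediate progenitor ratio was 0.621 (0.548 to 0.705), past 1.5-fold in 7 of 11 alternatives, while the cluster led by Efl1 held 79.7 and 80.9 CPM under these labels. Neurons had almost none: 2.70 and 1.87 CPM in newborn neurons labelled E14 and E18, 0.829 CPM in maturing neurons labelled E14, and 0 UMIs in those labelled E18, where 3 UMIs would be 0.498 CPM. With at least 2000 genes and at most 5% mitochondrial UMIs required of a cell, the radial glia ratio of E16 over E14 labels was 1.71 on the log2 scale, down from 2.32. Cells were then clustered and named anew. This left 131, 332 and 1227 radial glia in label order, from 391, 2865 and 1745, and 78 intermediate progenitors labelled E14. It turned the intermediate progenitor ratio to -0.33, from 1.00. Ratios under that stricter filter thus compare other sets of cells.

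Ccnd2, the D cyclin known for its part in expanding cortical progenitors, had another order. Radial glia labelled E14 held 152.4 CPM (142 to 163), those labelled E16 held 372.5 (367 to 378) and those labelled E18 held 515.5 (507 to 525). The library labelled E18 was 3.38 times that labelled E14 (3.16 to 3.63), and the ratio to that labelled E16 was 1.38 (1.35 to 1.42), under the 1.5-fold used here as the limit. In intermediate progenitors the 3 libraries lay close together at 206.1, 212.6 and 189.9 CPM. Newborn neurons went the other way from radial glia, with 65.0 CPM labelled E14 and 30.4 labelled E18, a ratio of 0.468 (0.411 to 0.532). The Sstr2 cluster of the library labelled E14 held 64.5 CPM, and the clusters led by Neurod1 and Pcp4, of that labelled E18, held 51.6 and 14.8 CPM. The log2 ratio of -1.07 stayed past 1.5-fold in 8 of 11 alternatives and was -0.44 with more doublets removed. Maturing neurons had 15.5 and 15.9 CPM.

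Ccnd3, the third D cyclin, differed more between the 4 classes than between libraries. Its level was 23.8, 29.6 and 22.2 CPM in radial glia and 9.66, 7.85 and 9.45 CPM in intermediate progenitors, so no intermediate progenitor value reached a radial glia value. Newborn neurons (10.4 and 7.72 CPM) and maturing neurons (11.9 and 9.63 CPM) stayed at the intermediate progenitor level. Within no class did any pair of libraries differ by 1.5-fold under the settings used here. Newborn neurons labelled E18 over E14, at -0.38 on the log2 scale, passed it in 5 of the 10 alternatives that gave a value and reached -1.06 at Leiden resolution 0.5.

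**Figure D1:**
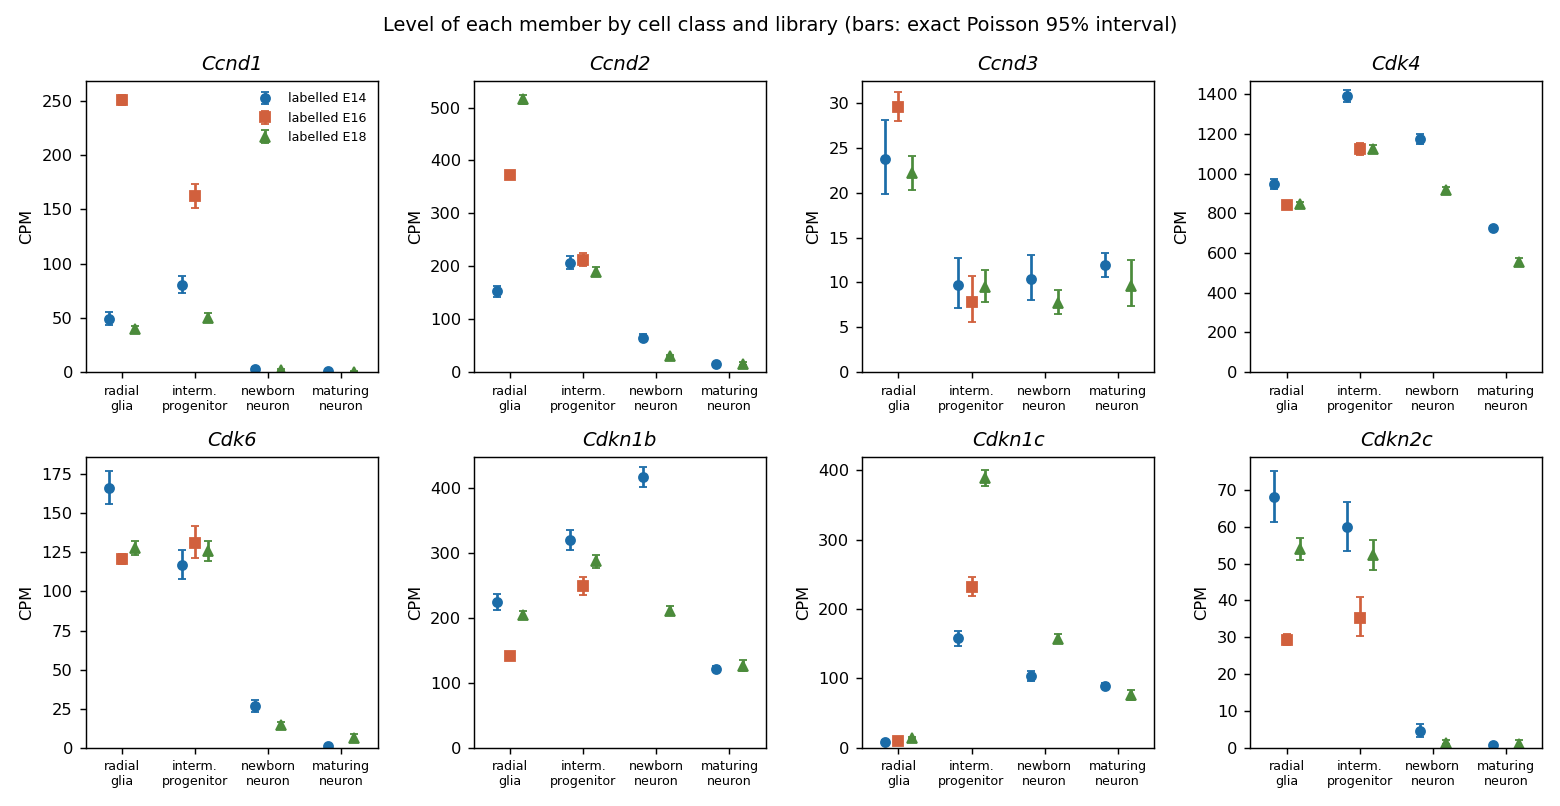
Level of each member in CPM (linear axis from 0, a scale of its own in each panel) by cell class, with 1 point per library and exact Poisson 95% intervals; classes with under 50 cells in a library are left out. Ccnd1 is high in the library labelled E16, Ccnd2 is highest in radial glia labelled E18, Cdkn1c is near the bottom of its axis in radial glia and highest in intermediate progenitors labelled E18.

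The make-up of the D cyclin pool followed from these levels. Transcripts were counted at their 3′ end without division by length, and capture may differ between genes, so only the change of a share between libraries is described. Ccnd1 made up 21.9% of D cyclin UMIs in radial glia labelled E14 (19.6 to 24.3), 38.4% in those labelled E16 (37.9 to 39.0) and 6.85% in those labelled E18 (6.44 to 7.27). Ccnd2 made up 67.6%, 57.0% and 89.3%. The sum of the 3 genes was 225 CPM in radial glia labelled E14, against 653 and 577 CPM in the other libraries. In intermediate progenitors the sums were 296, 383 and 249 CPM, so radial glia lay below intermediate progenitors in the library labelled E14 and above them in the others. In maturing neurons the sum was 28.2 and 25.6 CPM, and Ccnd3 made up 42.1% and 37.7% of it.

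**Figure D2:**
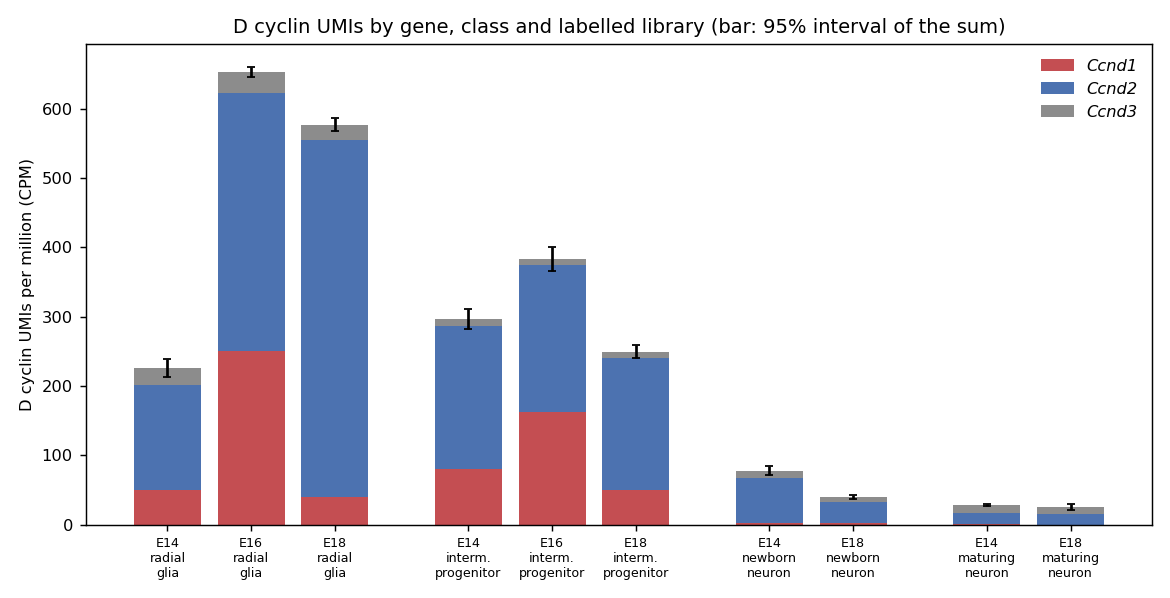
D cyclin UMIs in CPM, stacked by gene, for each class and labelled library; the black bar is the exact Poisson 95% interval of the sum. The sum falls from 225 to 653 CPM in radial glia to under 30 CPM in maturing neurons, and Ccnd1 takes its largest part in progenitors labelled E16.

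The excess of Ccnd1 in radial glia labelled E16 was also seen cell by cell, while the libraries labelled E14 and E18 had similar shares of cells. With every cell thinned to 5000 UMIs, which left out 245 of the radial glia as too shallow, 14.8% of radial glia labelled E14 had a Ccnd1 UMI (11.3 to 19.0, exact Clopper-Pearson interval), 61.1% of those labelled E16 (59.3 to 62.9) and 15.9% of those labelled E18 (14.1 to 17.7). Without thinning the shares were 23.5%, 82.3% and 25.7%. Ccnd1 and Ccnd2 were seen in the same cell in 5.60%, 47.7% and 13.3% of radial glia, and Ccnd2 without Ccnd1 in 39.2%, 29.7% and 68.6%. Erythroid cells labelled E16, which should lack cortical cyclins, were taken as a background of free RNA in that library. Of 123 such cells, 0.813% had a Ccnd1 UMI and 1.63% a Ccnd2 UMI. Their median depth was 32368 UMIs before thinning against 13635 in radial glia. Transcripts that erythroid cells make themselves were not told apart from free RNA. The other libraries held 1 and 9 such cells among those deep enough, too few for a background of their own. Ccnd1 shares in newborn neurons were 1.22% and 0.748%, and the interval of the background labelled E16 was 0.0206 to 4.45, so they are not read as expression. The Ccnd2 shares there were 20.6% and 12.7%, against a background interval of 0.198 to 5.75.

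Cdk4, a kinase that all D cyclins can activate, did not differ by 1.5-fold between any pair of libraries in progenitors. Radial glia held 947.2, 841.5 and 846.1 CPM in label order, with 0.888 (0.863 to 0.914) as the ratio farthest from 1 in that class. In intermediate progenitors it was 0.808 (0.786 to 0.832), for the labels E18 over E14. Intermediate progenitors held more in each library, 1391, 1125 and 1124 CPM, or 1.33 to 1.47 times radial glia. Post-mitotic cells kept the transcript, with 1176 and 917 CPM in newborn neurons and 726 and 554 CPM in maturing neurons. The last step was past 1.5-fold in both libraries, at 0.618 and 0.604 times the newborn level, though the first stayed past it in 6 of 11 alternatives and the second in 10, and at Leiden resolution 2, with finer clusters, the log2 ratios were -0.42 and -0.41. At 5000 UMIs, 94.9% of maturing neurons labelled E18 still had a Cdk4 UMI, against 6.50% of erythroid cells labelled E16.

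The promoter set used here, from RefSeq (GRCr8), held windows for 4 of the 8 members, Ccnd3, Cdk4, Cdkn1b and Cdkn2c. Windows run from 250 bases before to 50 after the gene start. They were searched on both strands for CACGTG, the E-box bound by Myc proteins, which reads the same on both strands, and for the E2F motifs TTTCCCGC, TTTGGCGC, TTTCGCGC and TTTGCCGC. The CCAAT box (CCAAT) and the GC box (GGGCGG) were searched too. The Cdk4 window, chr7:64771203-64771502 on the plus strand, held 3 E-boxes, beginning 203, 183 and 95 bases before the start. At least 1 E-box was found in 6.42% of 33469 rat promoter windows and at least 3 in 0.0568%. None was found in the other 3 windows. None of the 4 held one of these E2F motifs, which only 2.14% of all windows held, and sites with other letters were not searched. The GC box was found in each of the 4, with 3 matches in that of Ccnd3, and in 33.1% of all windows. The CCAAT box was found in those of Ccnd3 and Cdkn1b, and in 37.5% of all windows. Cdk4 and Cdkn2c are printed because they lie at the ends of the range across classes, Cdk4 kept in neurons and Cdkn2c almost gone. Capitals mark the E-box.
Cdk4: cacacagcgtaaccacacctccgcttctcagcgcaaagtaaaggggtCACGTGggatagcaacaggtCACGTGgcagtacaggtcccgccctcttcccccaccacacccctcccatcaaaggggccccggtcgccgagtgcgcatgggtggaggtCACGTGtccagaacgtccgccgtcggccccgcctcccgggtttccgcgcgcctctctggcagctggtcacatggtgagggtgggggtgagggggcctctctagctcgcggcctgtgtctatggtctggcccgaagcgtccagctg
Cdkn2c: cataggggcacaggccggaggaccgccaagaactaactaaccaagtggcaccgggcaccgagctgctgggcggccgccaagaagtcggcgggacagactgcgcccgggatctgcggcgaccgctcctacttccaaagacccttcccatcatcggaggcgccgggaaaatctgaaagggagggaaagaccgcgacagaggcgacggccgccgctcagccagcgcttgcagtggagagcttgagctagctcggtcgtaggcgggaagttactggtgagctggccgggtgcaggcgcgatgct
The Cdkn2c window is chr5:129644842-129645141 on the minus strand. Of the Myc genes, Mycn stood at 113, 123 and 95.5 CPM in radial glia and 52.9, 45.1 and 44.5 CPM in intermediate progenitors. Myc stood at 16.6, 4.55 and 7.43 CPM in radial glia and 17.1, 10.6 and 13.8 CPM in intermediate progenitors. A match of letters is a description of the window and not evidence of binding.

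Cdk6 separated progenitors from neurons. Radial glia held 166.4, 120.5 and 127.8 CPM and intermediate progenitors 116.9, 131.3 and 126.1 CPM, with no ratio past 1.5-fold between libraries or between these classes. Intermediate progenitors over radial glia labelled E14 lay close to it, at -0.51 on the log2 scale, and passed it in 5 of 11 alternatives, reaching -0.82. Under the stricter filter radial glia labelled E18 over E14 also passed it, at -0.69 from -0.38. Newborn neurons held 26.6 and 14.5 CPM, which is 0.227 (0.191 to 0.269) and 0.115 (0.100 to 0.132) times intermediate progenitors of the same library. On the log2 scale the first, at -2.10, ran from -3.67 at Leiden resolution 2 to -0.90 under the stricter filter. The second, at -3.04, ran from -3.72 with separate clustering to -1.71 under the stricter filter. By cluster the newborn level was 26.0 CPM in that led by Sstr2, 30.5 CPM in that led by Neurod1 and 3.44 CPM in that led by Pcp4. Maturing neurons labelled E14 held 1.24 CPM, and those labelled E18 held 6.15 CPM, from 33 and 37 UMIs. At 5000 UMIs 0.302% and 1.52% of maturing neurons had a Cdk6 UMI. Of 123 erythroid cells labelled E16, 0 had one, where 3 cells would be 2.44%, so these levels are not read as expression. Thus Cdk4 and Cdk6, which bind the same cyclins, differed in neurons. Cdk6 made up 14.9% of their joint UMIs in radial glia labelled E14 and 13.1% in those labelled E18. In newborn neurons of these libraries its share was 2.21% and 1.56%, and in maturing neurons 0.171% and 1.10%.

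**Figure D3:**
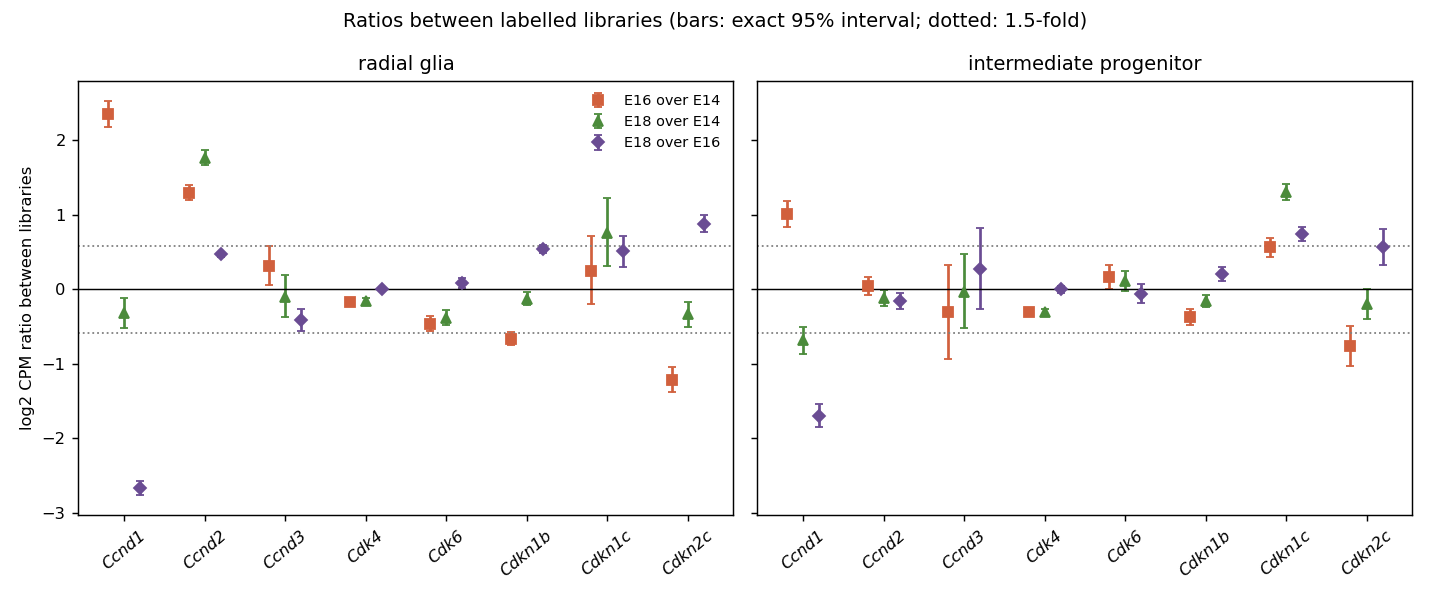
Log2 ratio of CPM between labelled libraries for each member in radial glia and intermediate progenitors, with exact 95% intervals for counting error and dotted lines at 1.5-fold. Ccnd1 reaches the largest ratios in both classes, Cdk4 and Cdk6 stay between the dotted lines.

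Cdkn1b was found at every step and was highest in intermediate progenitors or newborn neurons of each library. Its levels were 224.1, 141.5 and 204.9 CPM in radial glia and 320.0, 248.1 and 286.6 CPM in intermediate progenitors, so intermediate progenitors were higher in all 3 libraries, by 1.43, 1.75 and 1.40 times. Newborn neurons labelled E14 held the most, 416.2 CPM, against 210.8 CPM in those labelled E18, a ratio of 0.507 (0.482 to 0.533). The Sstr2 cluster held 416.0 CPM, and the clusters led by Neurod1 and Pcp4 held 250.1 and 178 CPM. The stricter filter took the log2 ratio from -0.98 to -0.26, short of 1.5-fold. Maturing neurons of both libraries held 121.8 and 126.3 CPM. The low value of radial glia labelled E16 was 0.631 times that labelled E14 (0.594 to 0.671). Under the stricter cell filter, with 332 radial glia labelled E16 left, the log2 ratio of -0.66 became -0.36, short of 1.5-fold.

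Cdkn1c marked the step from radial glia to intermediate progenitors more than any other member. Radial glia held 8.40 CPM (6.17 to 11.2), 9.94 (9.03 to 10.9) and 14.1 (12.7 to 15.7) in label order. Intermediate progenitors held 157.6 CPM (147 to 169), 232.4 (219 to 246) and 388.7 (378 to 400). The ratios were 18.8 (14 to 25.7), 23.4 (21.0 to 26.2) and 27.6 (24.7 to 30.8), and their log2 values ran from 2.60 under the stricter filter in the library labelled E14 to 5.51 under the same filter in that labelled E16. Beside this difference, the summed level of the 7 meningeal markers, a cell type very rich in Cdkn1c, was 0.947, 10.4 and 6.80 CPM in intermediate progenitors and 3.04, 8.29 and 5.09 CPM in radial glia, with Col1a1, Lum and Foxc1 at 0 in intermediate progenitors labelled E14. The 7 measured markers of Cajal-Retzius cells, another type rich in Cdkn1c, summed to 12.1, 49.9 and 13.7 CPM in intermediate progenitors and 7.68, 14.4 and 8.81 CPM in radial glia, with Lhx5 at 0 in both classes labelled E14. The part of either cell type in the ratios was not tested. Only 4.20%, 4% and 4.18% of radial glia had a Cdkn1c UMI at 5000 UMIs, against 4.07% of erythroid cells labelled E16, and unthinned 7.16%, 11.5% and 9.80% against 16.3%. The erythroid cluster held 39 UMIs of Cdkn1c and 8 of Ccnd1, where radial glia labelled E16 held 441 and 11136. Whether erythroid cells carry Cdkn1c of their own was not tested. The radial glia shares were not told apart from the erythroid background, which was measured in 1 library only. The UMIs were not spread evenly, and by cell cycle transcripts (described below) radial glia labelled E18 had 37.4 CPM (23.2 to 57.2) when low in both lists and 11.1 (9.47 to 12.9) in G2/M. Nothing is read from library ratios of Cdkn1c in radial glia. Of intermediate progenitors, 31.5%, 43.0% and 54.0% had a UMI, well above that background.

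Between libraries, intermediate progenitors labelled E18 held 2.47 times the Cdkn1c of those labelled E14 (2.29 to 2.66). The log2 ratio of 1.30 ran from 1.09 with more doublets removed to 2.60 under the stricter filter. The 6 markers of choroid plexus, a further type rich in Cdkn1c, summed to 0.947, 18.6 and 44.4 CPM in intermediate progenitors in label order, with Kl, Folr1 and Clic6 at 0 in those labelled E14 and E16 and Clic6 at 0 in that labelled E18. In radial glia they summed to 2.86, 13.4 and 40.9 CPM. Their part in the ratio was not tested. The same direction appeared in each of the 3 intermediate progenitor clusters. The cluster led by Efl1, Neurog2 and Eomes had 229, 158 and 409 CPM in label order, the one led by Gadd45g and H1f5 had 59.2, 231 and 336, and the one led by the mitotic genes Ube2c, Hmmr and Ccnb1 had 95.2, 272 and 459. The library labelled E18 was highest in all 3, while the place of that labelled E16 depended on the cluster. Neurons held less Cdkn1c than intermediate progenitors, 103.1 and 157.4 CPM when newborn and 89.3 and 76.1 CPM when maturing. Newborn neurons stood at 0.654 (0.591 to 0.725) and 0.405 (0.386 to 0.425) times intermediate progenitors. By cluster newborn neurons held 102.9 CPM in that led by Sstr2, 237.5 CPM in that led by Neurod1 and 97.4 CPM in that led by Pcp4. The ratio labelled E14 turned direction under the stricter filter, to 0.62 on the log2 scale from -0.61, with 54 newborn neurons labelled E14 left. That labelled E18 lost the 1.5-fold there, at -0.17 from -1.30.

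Cdkn2c, the INK4 member, was high in progenitors and low in neurons. Radial glia held 68.1 CPM (61.4 to 75.3), 29.3 (27.8 to 31.0) and 53.9 (51.0 to 56.8), lowest in the library labelled E16. That library stood at 0.431 times the one labelled E14 (0.384 to 0.484), and the one labelled E18 was 1.84 times it (1.70 to 1.98). Both moved under the stricter filter, which left 332 radial glia labelled E16, from -1.19 to -0.47 and from 0.85 to 0.08 on the log2 scale. Intermediate progenitors repeated the order with 59.9, 35.3 and 52.2 CPM, and so did each of their 3 clusters, though in that led by Efl1 the libraries labelled E16 and E18 lay close, at 14.6 and 16 CPM. Newborn neurons held 4.50 and 1.40 CPM, or 0.0752 (0.0499 to 0.110) and 0.0269 (0.0171 to 0.0403) times intermediate progenitors, and 1.82% and 0.695% of them had a UMI, against 1.63% of erythroid cells labelled E16. Under the stricter filter these log2 ratios shrank, from -3.47 to -0.26 and from -4.47 to -1.07.

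Counts over the 8 members were read against all genes with at least 5 CPM on average in the 2 groups. A difference counts when it is past 1.5-fold on the CPM + 1 scale. For radial glia labelled E16 over E14, 2 members were higher and 2 lower, beside 25.6% of all genes past that limit in either direction. For the library labelled E18 over that labelled E14 the count was 2 higher and 0 lower (all genes 14%), the 2 being Ccnd2 and Cdkn1c, the latter at the level not told apart from background and past the limit in 5 of 10 alternatives, and over that labelled E16 1 higher and 1 lower (7.98%). In intermediate progenitors each of the 3 pairs had 1 higher and 1 lower, against 28.4%, 12.8% and 12.2% of all genes in the same order of pairs. In newborn neurons 1 was higher and 4 lower in the library labelled E18 (13.3%), and in maturing neurons 1 was higher and 1 lower (14.7%), Cdk6 and Ccnd1. All 8 members reached the 5 CPM level in progenitors and 6 in newborn neurons, where Cdkn2c, counted lower, did not. In maturing neurons 5 did, and neither Cdk6 nor Ccnd1, which was under 1 CPM, was among them. With so few members 2 of 8 is already 25%, and nothing is read from the counts in intermediate progenitors. The count of 5 in newborn neurons fell to 2 or 3 under 4 of the alternatives, and there the haemoglobin level was 2164 CPM labelled E14 against 314 labelled E18. Its part in the result was not tested.

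The same counts were made between classes of a library. Intermediate progenitors over radial glia gave 2 higher and 1 lower in the library labelled E14 (27.2% of all genes past the limit), 2 higher and 3 lower under the label E16 (25.4%), and 1 higher and 2 lower under E18 (24.1%). Cdkn1c was higher and Ccnd3 lower in all 3. Ccnd2 was lower in intermediate progenitors labelled E16 (0.571 times) and E18 (0.368 times), and stood at 1.35 times radial glia labelled E14. That library's radial glia also carried more of the intermediate progenitor marker list, 1536 CPM in all against 603 and 818, with all 10 markers detected in each library, and the part of this in the ratio was not tested. From intermediate progenitor to newborn neuron, 0 members were higher and 5 lower in both libraries, against 32.3% and 36.7% of all genes, and they were the same 5: Ccnd1, Ccnd2, Cdk6, Cdkn1c and Cdkn2c. Under the stricter filter Ccnd2 and Cdkn2c labelled E14 fell short of the limit, at -0.49 from -1.65 and -0.26 from -3.47 on the log2 scale. Cdkn1c turned to 0.62 labelled E14 and fell short at -0.17 labelled E18. From newborn to maturing neuron 0 were higher and 6 lower in both, against 32.3% and 24%, with Ccnd1 and Cdkn2c under the 5 CPM level. Ccnd1, Ccnd2, Cdk4, Cdk6 and Cdkn1b were lower in both, Cdkn2c in the library labelled E14 and Cdkn1c in that labelled E18. The Cdkn1c ratio labelled E18 was past 1.5-fold in 9 of 11 alternatives and 0.028 on the log2 scale at Leiden resolution 2, from -1.04. Ccnd2 labelled E18 was past it in 8 of 11, with -0.17 from -0.89 when libraries were clustered separately. Ccnd1 labelled E14 was past it in 6 of 10, with -0.25 from -1.02 at resolution 2. Restricted to members with at least 20 CPM on average, the 12 lower values became 7. Cells were clustered without the members, but these classes were still built from the same cells, so differences between them are descriptions.

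Among the 31 other genes of the G1/S pathway listed for this purpose, 26 reached 20 CPM in some class. Cdkn1a, Cdkn2a, Cdkn2b, Rbl2 and Ambra1 did not, and the first 3 of these, all CDK inhibitors, peaked at 1.77, 0.189 and 0.379 CPM. From intermediate progenitor to newborn neuron 15 of 26 were lower and 1 higher in the library labelled E14, and 16 lower and 1 higher in that labelled E18, beside the 32.3% and 36.7% of all genes past the limit. The 15 were all among the 16 and include E2f1 (87.9 to 14.4 CPM labelled E14, 96.1 to 9.24 labelled E18), Ccna2, the S and G2 cyclin (111 to 2.85 and 132 to 3.74), Cdk2, the partner of E and A cyclins (35.6 to 5.85 and 44.7 to 3.27), and Skp2, the ubiquitin ligase subunit that targets p27 (38.5 to 8.56 and 63.9 to 10.9). The higher one was Myc labelled E14 (17.1 to 26.3 CPM) and Mycn labelled E18 (44.5 to 95.1 CPM). The list's median log2 ratio was -1.16 and -1.44, while the median over all genes of at least 50 CPM was -0.06 and -0.05. Cdkn2d (p19), the only INK4 gene of this list to reach 20 CPM, did not follow Cdkn2c: it held 65.8 and 66.4 CPM in newborn neurons and 101 and 122 CPM in maturing neurons.

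**Figure D4:**
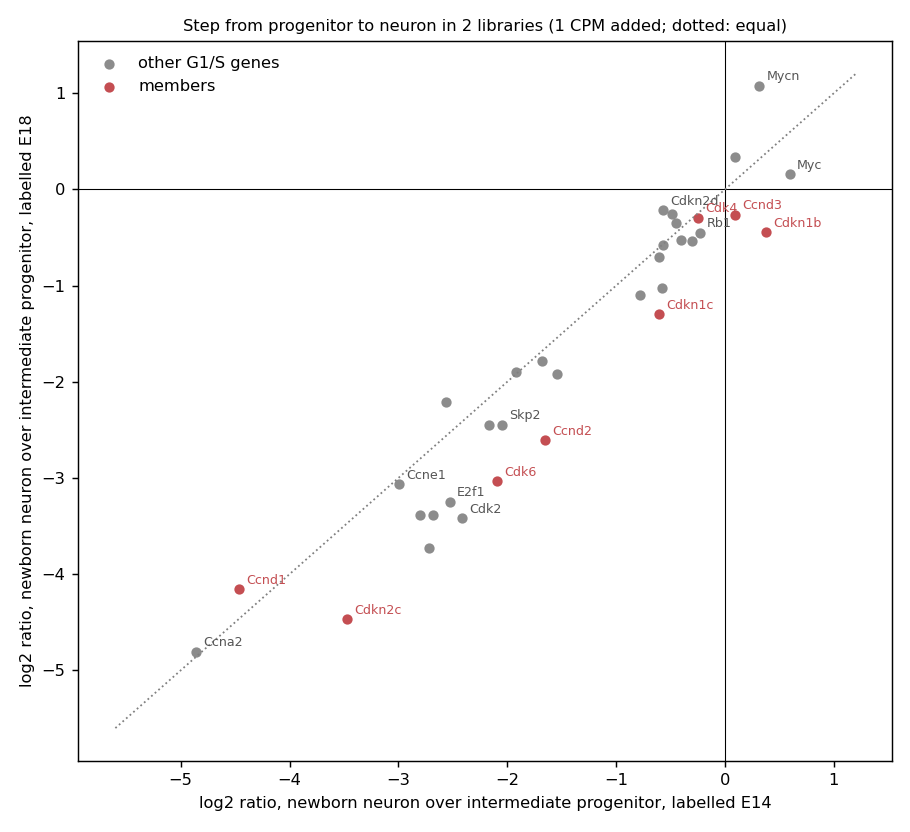
Log2 CPM ratio (1 CPM added) of newborn neurons over intermediate progenitors in the library labelled E14 (x) and that labelled E18 (y), for the 8 members in red and 26 other G1/S genes in grey; the dotted line marks equal ratios. Ccnd1 and Cdkn2c lie near Ccna2 at the far end, Cdk4, Ccnd3 and Cdkn1b lie near 0.

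Between libraries of progenitors fewer pathway genes were past the limit than at the step to newborn neurons. In radial glia labelled E16 over E14, 7 of the 26 were higher (E2f2, E2f3, E2f7, E2f8, Ccne1, Cdc25a and Skp2) and 4 lower (E2f1, E2f5, Cdkn2d and Myc), beside 25.6% of all genes, with Ccne1, an E cyclin, at 54.5 against 28.6 CPM and E2f3 at 82.5 against 50.2. Cdkn2d was 32.9 CPM labelled E16, 43.0 labelled E18 and 66.8 labelled E14, the same order as Cdkn2c. In radial glia labelled E18 over E14, 3 were higher and 2 lower (all genes 14%), and over E16, 2 were higher and 0 lower (7.98%). In intermediate progenitors labelled E16 over E14, 9 were higher and 1 lower (28.4%), with Ccna2 at 187 against 111 CPM. The library labelled E18 had 5 higher and 0 lower against that labelled E14 (12.8%). Against that labelled E16, 0 of 26 passed the limit (12.2%). In intermediate progenitors over radial glia Mycn was lower in all 3 libraries and E2f1 higher, at 87.9, 84.2 and 96.1 CPM against 44.1, 28.8 and 44.8.

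Progenitors were next split by the cell cycle transcripts each cell carried at 2000 UMIs. A cell with at least 4 UMIs of an S list or a G2/M list went to the list with more, and the others are called low in both. Such calls read transcripts and not the cycle itself: 28.0% of newborn neurons labelled E14 and 35.5% of those labelled E18 reached a list, where Mki67, a gene of dividing cells, stood at 7.21 and 17.8 CPM against 381 to 390 in radial glia. The part of free RNA in these calls was not tested. Cells low in both were 14.7%, 0.773% and 3.01% of radial glia and 33.9%, 2.63% and 18.2% of intermediate progenitors in label order. At the limit or 1 UMI under it lay 35 of 387, 23 of 2846 and 57 of 1729 radial glia, and 83 of 437, 8 of 418 and 146 of 1032 intermediate progenitors. Many newborn neurons lay there, 361 of 880 labelled E14 and 819 of 1929 labelled E18.

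The library differences of the D cyclins in radial glia were compared within these groups. Ccnd1 labelled E16 was 3.46 times that labelled E14 in S cells (2.86 to 4.24) and 5.51 times in G2/M cells (4.71 to 6.49). Ccnd2 labelled E18 was 4.29 times that labelled E14 in S cells (3.70 to 5.00) and 3.12 times in G2/M cells (2.87 to 3.41). In the few radial glia low in both, 57 labelled E14 and 22 labelled E16, Ccnd2 labelled E16 was 0.987 times that labelled E14 (0.649 to 1.47), against 2.44 in the whole class. For Ccnd1 labelled E18 over E14 the ratio was 1.85 (0.828 to 4.34) in such cells, against 0.754 in S and 0.662 in G2/M cells. In intermediate progenitors the same ratio was 1.77 (1.22 to 2.60) in cells low in both, against 0.607 in S and 0.312 in G2/M cells. Cdkn1c in intermediate progenitors labelled E18 was 3.34 times that labelled E14 in S cells (2.79 to 4.02) and 4.69 times in G2/M cells (4.03 to 5.48). Among cells low in both it was 1.92 times (1.73 to 2.14), so S and G2/M cells lay above, and cells low in both below, the 2.47 of the whole class.

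Within a library the members differed in which group of cell cycle transcripts held most of them. Ccnd1 was highest in S cells in both progenitor classes and all 3 libraries, for example 143, 294 and 86.6 CPM in S against 73.2, 110 and 22.9 in G2/M cells of intermediate progenitors. In radial glia labelled E16 the gap was small, 259 against 248 CPM. Cdkn1b was lower in S than in G2/M in all 6 pairs of class and library, with 172, 106 and 149 against 245, 162 and 239 CPM in radial glia. Cdkn2c was likewise lower in S in all 6, with 47.9, 22.6 and 34.1 against 85.1, 33.5 and 67.1 CPM in radial glia, and lowest in cells low in both. Cdkn1c went the opposite way and was highest in intermediate progenitors low in both, 345 CPM labelled E14 (148 cells) and 664 labelled E18 (188 cells), against 89.0 and 297 in S cells and 80.7 and 378 in G2/M cells. The 11 cells low in both labelled E16 were too few to set beside these. S cells held 0.258 (0.211 to 0.312) and 0.448 (0.413 to 0.485) times the Cdkn1c of cells low in both. In newborn neurons the same split gave 1.05 (0.823 to 1.32) and 1.08 (0.956 to 1.22) times, the first of which became 0.660 (0.532 to 0.820) when 2 UMIs of a list were enough.

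**Figure D5:**
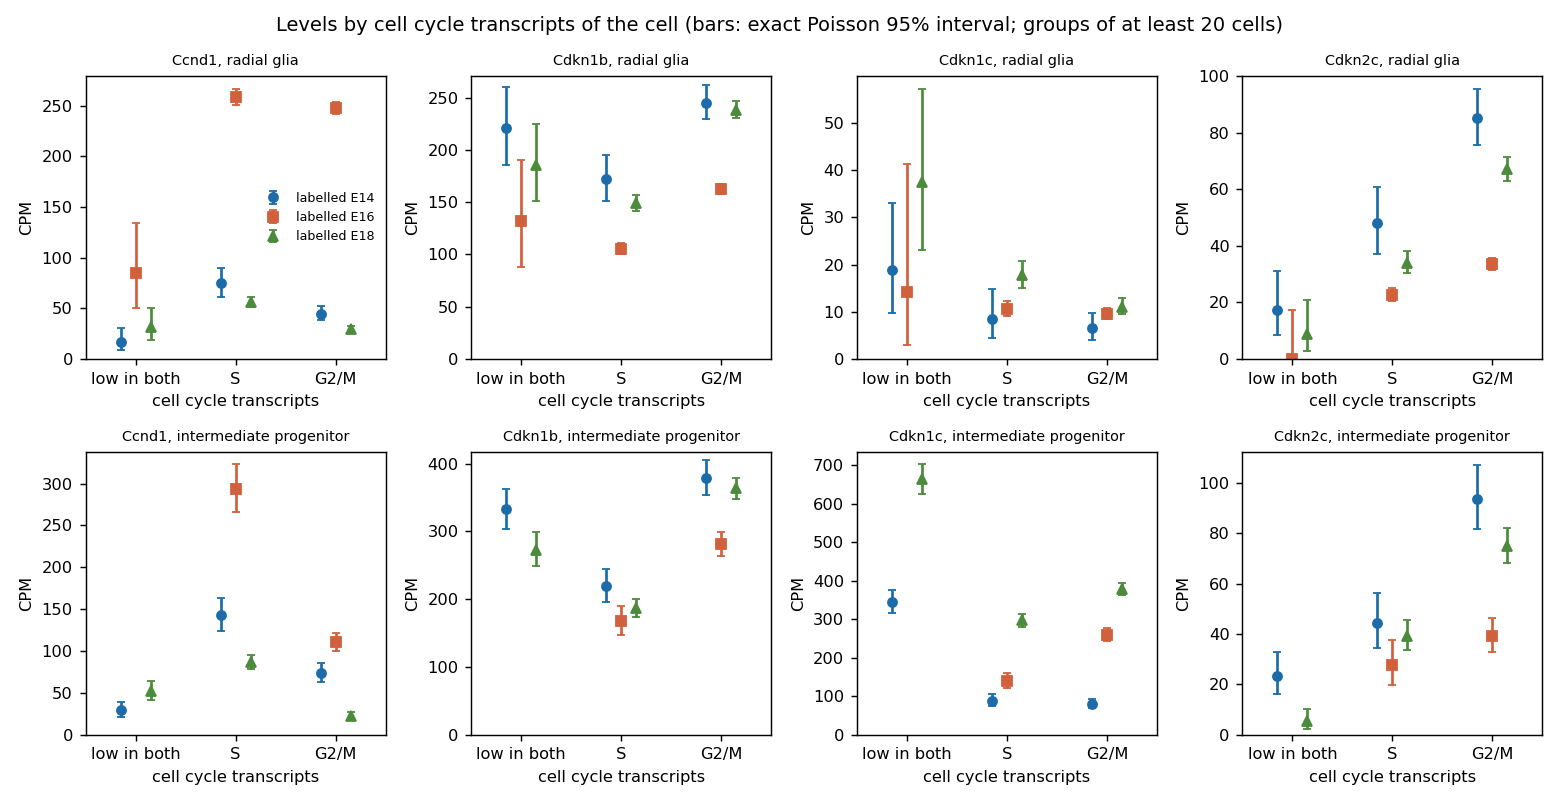
CPM of 4 members (linear axes from 0) in radial glia (top) and intermediate progenitors (bottom), split by cell cycle transcripts, with exact Poisson 95% intervals; groups under 20 cells are left out. Ccnd1 is highest in S cells, Cdkn1b and Cdkn2c are higher in G2/M than in S cells, and Cdkn1c in intermediate progenitors is highest in cells low in both lists.

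Across the 10 combinations of class and library with at least 50 cells, the members were compared by Pearson r of log2(CPM + 1). Ccnd1, Ccnd2, Cdk6 and Cdkn2c ran together, with r from 0.90 to 0.95 and 0.92 between the cyclins. Cdk4 and Cdkn1b had 0.88, and Cdkn1c and Ccnd3 ran opposite to each other, with -0.94. These points share libraries, depth and the contrast of progenitor with neuron, so r describes shape only. The genes most like each member, among 4661 with at least 50 CPM somewhere, included Naca (0.99), Nup43 and Zbtb8os for Ccnd1, Trap1 (0.98) and Ptbp1 for Ccnd2, and Enoph1 (0.96), Polr1g and Mphosph6 for Ccnd3. For the kinases they were Vps25 (0.98), Zfp62 and Tmem131l for Cdk4, and Msn (0.99), Hmg20b and Wbp4 for Cdk6. For the inhibitors they were Ccnl2 (0.96), Vgll4 and Idh3g for Cdkn1b, Ahsa2 (0.99), Plcxd2 and Bcl7a for Cdkn1c, and Tfap2c (0.99), LOC102549061 and H2ac10 for Cdkn2c.

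Other cell types in the libraries gave the widest range of Cdkn1c. Meningeal or fibroblast cells labelled E16 (107 cells) held 1665 CPM, choroid plexus cells 250 CPM labelled E16 and 683 labelled E18, and Cajal-Retzius cells, early neurons of the cortical surface, 476 and 736 CPM. Cajal-Retzius cells held only 3.80 and 1.05 CPM of Ccnd1. Erythroid cells labelled E16 had the reverse make-up, with Ccnd3 at 70.0 CPM and Ccnd1 at 1.97. A cluster led by Fgf17, Fgf8 and Dlx1, which kept no cell type name and held 350 cells labelled E16, had 491 CPM of Ccnd1 (470 to 513), above the 250.9 CPM of radial glia in that library, together with 254 CPM of Cdkn1c. Another unnamed cluster led by Calb1, Calb2 and Lhx9, with 612 cells labelled E16, had 30.7 CPM of Ccnd1 and 273 CPM of Cdkn1c.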

How the data were processed

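Single cells of 3 rat cortex libraries were analysed from the deposited count matrices, which hold UMI counts per gene and barcode made by the authors with Cell Ranger 6.0.1 on build mRatBN7.2, per the submitters' processing notes. The counts are not normalized, and all else was computed here.

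Barcodes with at least 1000 genes and at most 10% mitochondrial UMIs were kept (4444, 5193 and 5690 in label order). Scrublet in scanpy 1.11.5 scored doublets, and the highest scores were removed at 0.8% per 1000 cells (158, 216 and 259 cells), since its own threshold marked only 0.0578% of the library labelled E16. Counts were scaled to 10000 per cell, and 2000 variable genes, without the members, pathway and cell cycle lists, gave 30 components, 15 neighbours and Leiden clusters at resolution 1 (leidenalg 0.10.2), with no integration. Of 24 clusters 22 were named from 115 marker symbols of 14 classes: at least 3 markers raised 1.2-fold with 10 CPM added and seen in 20% of cells, and no other class with more markers among the 10 leading genes. One cluster, with 773 cells labelled E14 and 4 labelled E18, could not be split between newborn and maturing neurons and was left out of both. Other class names rest on these rebuilt clusters, 15 of which took over 90% of their cells from 1 library.

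Sums of UMIs over each class of a library are given as CPM with exact Poisson intervals. Ratios carry exact conditional intervals and shares exact Clopper-Pearson ones, at 95%, for counting error only. With 1 library per label no test was made. Differences are past 1.5-fold with 1 CPM added, for classes of at least 50 cells. Named are all members, listed pathway genes of at least 20 CPM past the fold, and the 3 genes most correlated with each member, of which 1 is not reported here. The members and lists were chosen with earlier results of these data known. The scripts ran under Python 3.11.15 with pandas 2.3.3, scipy 1.17.1, igraph 0.11.9, numpy 2.4.6 and scikit-learn 1.9.0, and matplotlib 3.10.9 drew the plots. Alternatives varied the cell filter, resolution, doublet rate, clustering by library, variable genes, cell weights, scaling, pseudocount and minimum level.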

Additional observations from a re-analysis of the deposited data

Results flagged for a closer look

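Of the members, 3 differed in opposite directions under the same contrast, past 1.5-fold each way, with the log2 ratio of CPM + 1 as the value. The difference between the 2 directions was itself not tested, since each rests on 1 library per label. Ccnd1 in intermediate progenitors over radial glia was 0.70 in the library labelled E14 and -0.63 in that labelled E16. The first of these turned to -0.13, -0.20 and -0.16 with separate clustering of the libraries, with the list genes allowed among the variable genes and with the looser cell filter. Ccnd2 in the library labelled E18 over that labelled E14 was 1.75 in radial glia and -1.07 in newborn neurons, and it was -0.12 in intermediate progenitors between them. The newborn value stayed past 1.5-fold in 8 of 11 alternatives. Cdk6 over the same pair of libraries was -0.83 in newborn neurons and 1.67 in maturing neurons, where its levels were 1.24 and 6.15 CPM. Its shares of maturing neurons lay under the share that 3 of the 123 erythroid cells labelled E16 would make, of which 0 had a UMI. The newborn value turned to 0.39 at Leiden resolution 2 and 0.21 with more doublets removed, and was past 1.5-fold in 6 of 11 alternatives. The maturing value was 0.54 with more doublets removed and past 1.5-fold in 9 of 10 alternatives. Newborn neurons of these libraries lay in different clusters, with Cdk6 at 26.0 CPM in that of the label E14 and at 30.5 and 3.44 CPM in those of the label E18.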

How the results depend on the processing

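Of 120 member ratios 54 were past 1.5-fold, and 26 of these stayed past it in the same direction under each of the 11 alternatives that gave a value. The alternatives for cell weights, scaling, pseudocount and minimum level kept the same cells and classes. Counts of alternatives are thus not counts of independent checks. The count of 5 members past 1.5-fold between libraries in newborn neurons became 2 at Leiden resolution 2, 3 when 2 times as many doublets were removed, 3 with the list genes allowed among the variable genes and 2 with the looser cell filter. The 12 between maturing and newborn neurons became 6 at resolution 2 and 7 with members of at least 20 CPM only. The counts for radial glia (8 of 24), intermediate progenitors (6 of 24) and the steps between classes (11 of 24 and 10 of 16) stayed within 1.5 times. They take either direction, so a ratio that turned is still counted. Cdkn1c labelled E14 at the step to newborn neurons under the stricter filter is such a case. Ccnd2 and Cdkn2c labelled E14 and Cdkn1c labelled E18 fell short of 1.5-fold there.

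Log2 ratios past 1.5-fold turned direction in 11 cases, and ratios short of that limit, not listed here, turned too. Under the stricter filter Ccnd1 labelled E16 over E14 in intermediate progenitors became -0.33, Ccnd1 labelled E18 over E14 in maturing neurons 0.26, and Cdkn1c in newborn neurons over intermediate progenitors labelled E14 0.62. At resolution 2 Cdk6 and Cdkn1c labelled E18 over E14 in newborn neurons became 0.39 and -0.13, and Cdkn1c in maturing over newborn neurons labelled E18 0.028. More doublets removed gave 0.21 for Cdk6 in newborn neurons, and separate clustering gave -0.20 for Cdkn1c there. Ccnd1 in intermediate progenitors over radial glia labelled E14 became -0.13, -0.20 and -0.16 with separate clustering, list genes allowed and the looser filter. The cause was not tested, but the stricter filter leaves 54 newborn and 55 maturing neurons labelled E14. Each label has 1 library, so no library could be left out. No paired analysis was possible because no group has more than 1 library. The erythroid background limits what can be read from Ccnd1 and Cdkn2c in neurons, Cdk6 in maturing neurons and Cdkn1c in radial glia. Their shares of cells lie near those of erythroid cells labelled E16. Whether erythroid cells carry Cdkn1c or Cdkn2c of their own, beside free RNA, was not tested.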
